A study of Mus musculus with 5 samples.

Results

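The 42 genes described here mark cells that copy their DNA or divide. They were taken by symbol from a given list of S and G2/M genes, and all 42 were among the 32285 genes counted in each library. Of these, 25 act in G2 and mitosis (the G2/M members), 16 act at the start of DNA synthesis or in S phase (the G1/S members), and the last is Stmn1, which encodes the microtubule regulator stathmin. The question was which tubular, stromal, endothelial and immune cells of the mouse kidney carried transcripts of these genes in control, AKI and CKD.

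The kidneys came from wild-type C57BL/6 males, 8 to 10 weeks old. AKI kidneys (week 2; 2 libraries) followed 2 weeks of intraperitoneal aristolochic acid I (AAI), a plant toxin that injures the proximal tubule, at 3 mg/kg every 3 days, and CKD kidneys (week 4; 2 libraries) followed a further 2 weeks without AAI. The control (week 0; 1 library) received vehicle only. Single cells were captured in droplets and their transcripts counted as UMIs (unique molecular identifiers), each standing for 1 captured RNA molecule. Nothing in the sources used here says whether a library held 1 or several mice, so p-values measure only the spread between libraries.

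After filtering, 53718 cells remained, 8496 in the control, 10199 and 9910 in AKI 1 and AKI 2, and 16330 and 8783 in CKD 1 and CKD 2, with 55016760 to 80187309 UMIs per library. Cells were clustered without 974 genes, the 42 members among them. Of these, 733 were left out only because they correlated (over 0.1) with the summed G2/M members across cells of all classes. Clusters were named from marker genes, so every class is called X-like. There were 11204 cells in named tubular classes, 2829 EC-like, 23295 T lymphocyte-like and 5115 macrophage-like cells, while 11.7% of cells stayed in unnamed clusters. CKD 1 stood apart: it kept 0 cells under 1000 UMIs, against 323 to 1030 in each other library. Its tubular, podocyte-like, urothelium-like, endothelial and stromal classes had median depths of 2020 to 3342 UMIs per cell. DC-like and macrophage-like cells of CKD 1 had 2800 and 2995. PT-like cells were not shallower there than in AKI on the whole, with 2671 UMIs against 1687.5 and 2709.5. The control and CKD 2 shared 120 cell barcodes, 90 of them with over 20 times more UMIs in CKD 2, against 16 to 53 shared by the other pairs. Leaving out the 109 control cells concerned changed 1 call of a named gene, Stmn1 between T lymphocyte-like and macrophage-like cells (0.37 on the log2 scale, then past the threshold).

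Cells divide in a fixed order of gene programmes. E2F factors switch on genes for DNA synthesis as a cell leaves G1, and the later programme for mitosis is read from promoters that carry CCAAT letters and an element called CHR, bound by the DREAM and B-MYB complexes. In a healthy adult kidney few cells divide, whereas lymphocytes multiply after activation, resident macrophages renew themselves locally, and proximal tubule cells can re-enter the cycle after injury.

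Promoters of 34 members were found in RefSeq (build GRCm38.p6; 250 bases before to 50 bases after the start), for 21 G2/M and 13 G1/S members. Both strands were searched for TTTGAA or TTCGAA (CHR letters), GCGGGAA or GCGCCAA (E2F letters) and CCAAT. CHR letters stood in 17 of the 21 G2/M promoters (81.0%) and in 2 of the 13 G1/S promoters (15.4%), against 19.2% of all 32851 promoters of that length. E2F letters stood in 3 of the 21 (14.3%) and 6 of the 13 (46.2%), against 6.81%, and CCAAT in 19 of the 21 (90.5%) and 8 of the 13 (61.5%), against 37.4%. A match is only these letters in this window and was not tested as a site. The 150 bases before the start of 3 G2/M and 2 G1/S members whose levels are followed below are shown on the gene's own strand with these letters in capitals, because they show how the promoter letters of the groups differ.
Mki67 (G2/M, chr7:135716380-135716529, minus strand): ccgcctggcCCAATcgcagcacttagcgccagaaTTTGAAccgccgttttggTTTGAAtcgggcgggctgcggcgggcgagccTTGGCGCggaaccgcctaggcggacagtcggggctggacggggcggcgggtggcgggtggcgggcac
Top2a (G2/M, chr11:99024190-99024339, minus strand): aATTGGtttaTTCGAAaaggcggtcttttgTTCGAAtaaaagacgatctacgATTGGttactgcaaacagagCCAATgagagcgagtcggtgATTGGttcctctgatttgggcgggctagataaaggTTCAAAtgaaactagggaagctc
Cdk1 (G2/M, chr10:69352913-69353062, minus strand): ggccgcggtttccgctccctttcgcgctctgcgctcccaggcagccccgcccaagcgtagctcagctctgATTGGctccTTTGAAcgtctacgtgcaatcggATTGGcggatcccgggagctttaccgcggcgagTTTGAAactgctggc
Mcm5 (G1/S, chr8:75109359-75109508, plus strand): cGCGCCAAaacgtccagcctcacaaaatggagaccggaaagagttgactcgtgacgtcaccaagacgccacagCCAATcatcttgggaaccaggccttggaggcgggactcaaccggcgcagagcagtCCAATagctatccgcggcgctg
Pcna (G1/S, chr2:132253181-132253330, minus strand): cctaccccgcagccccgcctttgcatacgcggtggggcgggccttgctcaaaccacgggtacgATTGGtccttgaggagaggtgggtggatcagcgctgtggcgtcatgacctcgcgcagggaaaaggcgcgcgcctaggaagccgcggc
Within these stretches Mki67, Top2a and Cdk1 held 2, 3 and 2 CHR matches, whereas Mcm5 and Pcna held 0.

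To compare cells of unequal depth, each cell was thinned to 1000 UMIs. A cell was called positive with at least 2 UMIs of the G2/M members. Cells under 1000 UMIs were not counted. This left out 270 of 730 PT-like cells in AKI 1 and 213 of 666 in AKI 2, but 0 in CKD 1. Shares are given with exact 95% binomial intervals, which cover counting error only. Over all libraries 5008 of 50683 cells were positive. Of them 52.4% were T lymphocyte-like, 11.9% macrophage-like, 7.69% PT-like, 5.11% DC-like and 2.38% EC-like, and 12.1% lay in unnamed clusters. These parts depend on class size, since 23046 of the cells counted were T lymphocyte-like. Within these 5 classes, in the same order, 11.4%, 12.2%, 7.77%, 13.4% and 4.41% of cells were positive. Neutrophils no longer divide, so neutrophil-like cells give the share in a class that should lack these transcripts: 3 of 192 (1.56%, 0.323 to 4.498) were positive, at a median depth of 3086 UMIs in those 3 cells and 2337 in the rest. Those 3 cells held T lymphocyte markers at 35.7 per 10000 UMIs, against 7.97 in the rest. The part of T lymphocyte transcripts in this share was not tested. With 3 cells the share is no firm limit, and it was not even between libraries. The summed level of the G2/M members in neutrophil-like cells was 0.975 UMIs per 10000 in the control, 8.05 and 1.56 in AKI and 3.27 and 2.25 in CKD, on 15 to 61 cells, so AKI 1 stood apart.

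Among T lymphocyte-like cells the positive share was 1.33% (0.746 to 2.18) in the control, 5.36% (4.80 to 5.96) and 6.14% (5.53 to 6.79) in AKI 1 and AKI 2, and 23.3% (22.1 to 24.6) and 15.5% (14.6 to 16.4) in CKD 1 and CKD 2. The control share depended on the processing: it was 3.04% with doublets kept, whose removal took 50% of the positive cells of the control, and 4.93% with clusters made without correction by library. Both CKD libraries lay above both AKI libraries, by 13.7 percentage points on average, where libraries of a group differed with an SD of 3.94 points. An exact permutation test over 2 against 2 libraries cannot go below p = 0.333, so shares carry no test. Positive T lymphocyte-like cells had a median of 14 different G2/M members detected and a median depth of 9569.5 UMIs, against 3990 UMIs in the rest.

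**Figure D1:**
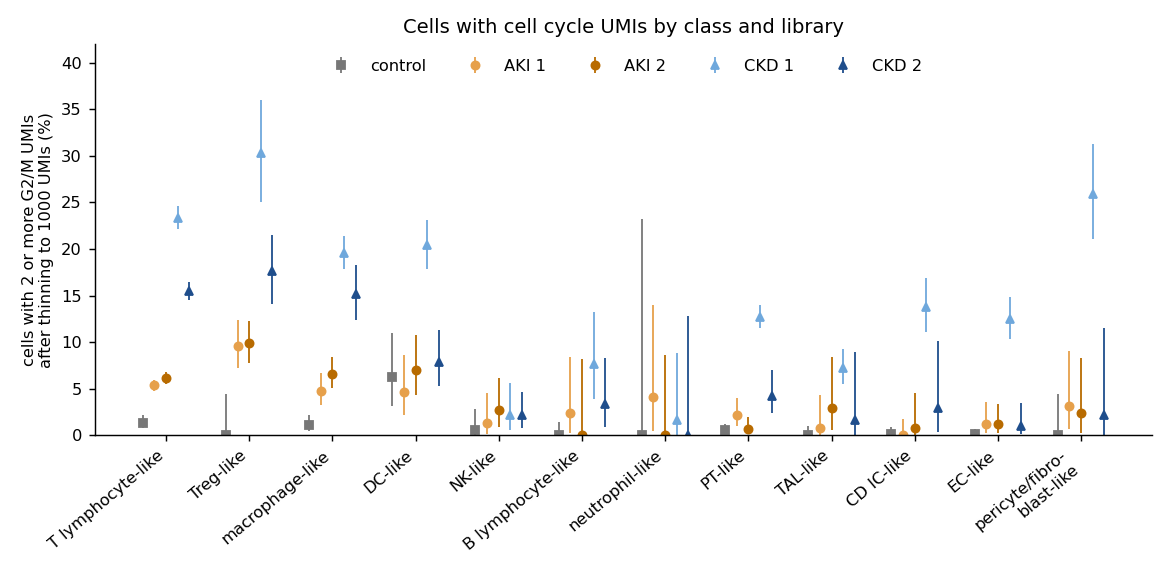
Share of cells with at least 2 G2/M UMIs after thinning to 1000 UMIs (y axis, %) in 12 classes (x axis) and 5 libraries; points are shares and bars exact 95% binomial intervals. T lymphocyte-like and macrophage-like cells of both CKD libraries lie above both AKI libraries, whereas in PT-like, EC-like and pericyte/fibroblast-like cells CKD 1 alone reaches over 10%.

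Subsets of T lymphocyte-like cells, named from their markers, ordered the libraries alike. In Treg-like cells the positive share was 0 of 82 in the control, which allows up to 3.66%, 9.57% and 9.86% in AKI, and 30.3% and 17.6% in CKD. In CD8 T-like cells it was 1.18% in the control, 4.13% and 4.68% in AKI and 23.9% and 18.1% in CKD. In CD4 T-like cells it was 1.36%, then 3.76% and 4.15%, then 14.8% and 8.46%. Each of the 3 subsets had higher shares in both CKD libraries than in both AKI libraries. By contrast, gamma-delta T-like cells had 4 positive cells of 83 in CKD 2 (4.82%) and 0 elsewhere among 9 to 32 cells a library, too few to compare. In Treg-like cells 40 of 42 members were higher in both CKD libraries than in both AKI libraries, as were 23.1% of all genes with at least 10 UMIs there. Of the 2622 positive cells, 511 lay in the cluster led by Cd8a and 531 in that led by Ccl1, whose leading genes included cell cycle genes, and the others were spread over the other 7 T lymphocyte-like clusters. In the CD8 T-like cluster led by Cd8a positive cells made up 7.34% and 10.4% in AKI and 48.3% and 35.2% in CKD, and in the cluster led by Ccl1, a chemokine gene, 16.4% and 16.4% in AKI and 45.0% and 30.4% in CKD.

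The levels of single members give the same comparison in UMIs per 10000 UMIs of a class and library. The summed G2/M level of T lymphocyte-like cells was 1.86 in the control, 8.67 and 9.46 in AKI, and 22.7 and 18.4 in CKD, and the G1/S level was 3.37, then 6.16 and 6.13, then 11.7 and 9.83. Mki67, which encodes the Ki-67 protein that coats mitotic chromosomes, stood at 0.221 (0.178 to 0.271) in the control, 0.955 and 1.01 in AKI, and 2.45 and 1.90 in CKD. All 42 members were higher in both AKI libraries than in the control, as were 43.7% of the 16325 genes with at least 10 UMIs in this class, and higher in both CKD libraries than in both AKI libraries, as were 27.6%.

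CKD was compared with AKI across 13757 genes with edgeR's quasi-likelihood test on summed UMIs of T lymphocyte-like cells, with Benjamini-Hochberg adjustment. The test called 41 of the 42 members higher in CKD (adjusted p under 0.05), where 7.79% of all genes tested were called higher, and the median log2 change was 1.12 over the members and -0.03 over all genes. The exception was Ccne2, a cyclin E gene, at 0.33 ± 0.12 (SE; adjusted p = 0.15). These calls rested on both AKI libraries. With 1 AKI library left, the spread came from the CKD libraries alone, and the calls of the members were lost. The 42 log2 changes then ran from 0.44 to 1.41 without AKI 1 and from 0.23 to 1.57 without AKI 2. Without CKD 1 or without CKD 2 the test called 41 members higher, with 16.1% and 15% of all genes.

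Among genes of mitosis, the smallest p-values belonged to Ccnb2, encoding a B-type cyclin (0.361 and 0.364 in AKI, 0.956 and 0.889 in CKD; log2 change 1.34 ± 0.07), and to Cdca3, which helps trigger mitotic entry (0.278 and 0.285 against 0.753 and 0.649; 1.31 ± 0.08). Birc5, which encodes survivin of the chromosomal passenger complex, went from 0.662 and 0.716 to 2.13 and 1.69 (log2 change 1.46 ± 0.11). In these 3 genes the lowest CKD value was over 2 times the highest AKI value. Ccna2, encoding cyclin A, went from 0.227 and 0.244 to 0.666 and 0.529 (1.33 ± 0.11). Cenpe, a kinetochore motor, went from 0.230 and 0.245 to 0.547 and 0.473 (1.09 ± 0.08). The 25 G2/M members had log2 changes from 0.83 (Kif23) to 1.46 (Birc5), and all 25 were called.

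Mki67 had a log2 change of 1.14 ± 0.11 (adjusted p = 0.012). Top2a, the topoisomerase that untangles chromosomes, stood at 0.226 in the control, 1.16 and 1.28 in AKI and 2.76 and 2.21 in CKD (log2 change 1.01 ± 0.11). Cdk1, the kinase that drives mitosis, stood at 0.0461 in the control, 0.199 and 0.215 in AKI and 0.589 and 0.439 in CKD (1.29 ± 0.13). Stmn1 stood at 0.389 in the control, 1.89 and 2.01 in AKI and 5.004 and 3.85 in CKD (1.17 ± 0.12). All 4 were called higher in CKD, and CKD 1 exceeded CKD 2 in each.

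The G1/S members covered a wider range. Pcna, the sliding clamp of DNA polymerase, stood at 1.24 in the control, 1.72 and 1.60 in AKI and 2.36 and 2.02 in CKD, and its log2 change of 0.39 ± 0.09 (adjusted p = 0.044) was the smallest among the called members. Mcm5, part of the replicative helicase, stood at 0.187 in the control, 0.333 and 0.358 in AKI and 0.770 and 0.660 in CKD (1.04 ± 0.08). Ccne1, the other cyclin E gene, stood at 0.0389 in the control, 0.144 and 0.128 in AKI and 0.226 and 0.194 in CKD (0.61 ± 0.11). The median log2 change was 0.93 over the 16 G1/S members and 1.19 over the 25 G2/M members.

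**Figure D2:**
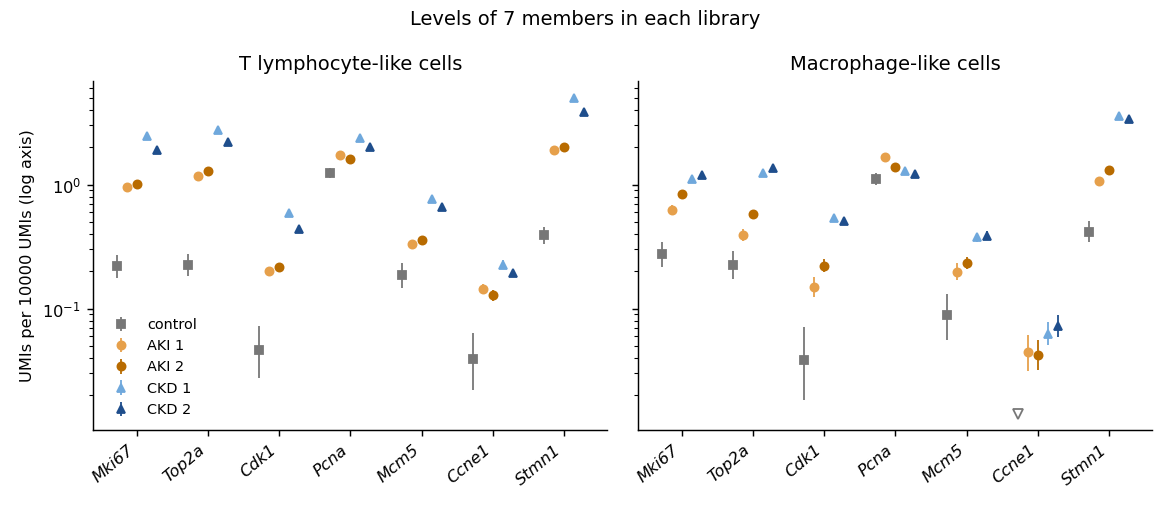
Level of 7 members (y axis, UMIs per 10000 UMIs, log axis) in T lymphocyte-like (left) and macrophage-like (right) cells of each library; bars are exact 95% Poisson intervals and the open triangle is the upper limit for a count of 0. In T lymphocyte-like cells the order is control, AKI, CKD for all 7, whereas Pcna in macrophage-like cells is lower in both CKD libraries than in both AKI libraries.

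Other cell cycle genes moved in the same comparison of T lymphocyte-like cells. Of 61 further G2/M genes tested 56 were called higher and 0 lower, with Pclaf at 1.47 ± 0.12 and Tacc3 at 1.22 ± 0.09 on the log2 scale. Of 42 further S genes 33 were called higher, among them Clspn (1.21 ± 0.11) and Uhrf1 (1.13 ± 0.11). Of 26 regulators of G1, 11 were called higher, including the E2F genes E2f8 (1.54 ± 0.14) and E2f2 (0.96 ± 0.11) and the mitotic factors Foxm1 (1.22 ± 0.12) and Mybl2 (1.20 ± 0.16), and 2 were called lower. Of 19 CDK inhibitors and p53-induced genes 0 were called higher and 1 lower, the p53 target Trp53inp1 (-0.55 ± 0.10).

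Macrophage-like cells formed the next group. Their positive share was 1.08% (0.433 to 2.203) in the control, 4.75% (3.23 to 6.71) and 6.57% (5.08 to 8.35) in AKI, and 19.6% (17.9 to 21.3) and 15.2% (12.4 to 18.3) in CKD, an average rise of 11.7 percentage points where libraries of a group differed with an SD of 2.38 points. Their G2/M level was 1.69 in the control, 4.39 and 5.81 in AKI, and 11.8 and 11.8 in CKD. Both CKD libraries lay above both AKI libraries for 40 of 42 members and for 41.0% of the 14809 genes with at least 10 UMIs. T lymphocyte markers were low in this class, at 0.299 to 2.47 UMIs per 10000 by library against 31.3 to 40.6 in T lymphocyte-like cells. They were at 1.45 in positive and 1.32 in other macrophage-like cells. A T marker UMI was held by 58.2% of positive cells and 40.9% of the rest, at median depths of 5479.5 and 6815 UMIs. The median depth of the class was 2995 UMIs in CKD 1, 10994 and 11285 in AKI and 19267 in CKD 2. The part of T lymphocyte transcripts or of depth in these values was not tested.

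The test over 12500 genes called 35 members higher in CKD, where 17.7% of all genes tested were called higher, and 1 lower, where 18.2% were. The median log2 change was 0.99 over the 42 members and 0.02 over all genes. Ube2c, which encodes the E2 enzyme of the anaphase-promoting complex, went from 0.405 and 0.429 in AKI to 1.32 and 1.21 in CKD (1.43 ± 0.10; adjusted p = 0.00021). Stmn1 stood at 0.417 in the control, 1.06 and 1.30 in AKI and 3.57 and 3.37 in CKD (1.38 ± 0.12), and Cdca3 went from 0.160 and 0.204 to 0.539 and 0.531 (1.37 ± 0.14). In each of these 3 genes the AKI and CKD values lay far apart. Rrm1, encoding the large subunit of ribonucleotide reductase, went from 0.171 and 0.212 to 0.515 and 0.479 (1.20 ± 0.13). Ccnb2 went from 0.142 and 0.186 to 0.460 and 0.437 (1.27 ± 0.14).

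Mki67 in macrophage-like cells stood at 0.276 (0.216 to 0.347) in the control, 0.628 and 0.838 in AKI and 1.11 and 1.19 in CKD, with a log2 change of 0.48 ± 0.15 (adjusted p = 0.048). Top2a stood at 0.226, then 0.395 and 0.577, then 1.24 and 1.36 (1.25 ± 0.18). Cdk1 stood at 0.0383, then 0.149 and 0.222, then 0.542 and 0.507 (1.31 ± 0.18). In these 3 genes both CKD libraries lay above both AKI libraries, as they did for 41.0% of all genes with at least 10 UMIs in this class. Mcm5 stood at 0.0881, then 0.199 and 0.234, then 0.375 and 0.388 (0.65 ± 0.13). Ccne1 had 0 UMIs in the control, 0.0442 and 0.0423 in AKI and 0.0628 and 0.0721 in CKD (0.47 ± 0.23; adjusted p = 0.16). Pcna was the member called lower, at 1.11 in the control, 1.68 and 1.39 in AKI and 1.29 and 1.22 in CKD (-0.46 ± 0.13; adjusted p = 0.030).

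**Figure D3:**
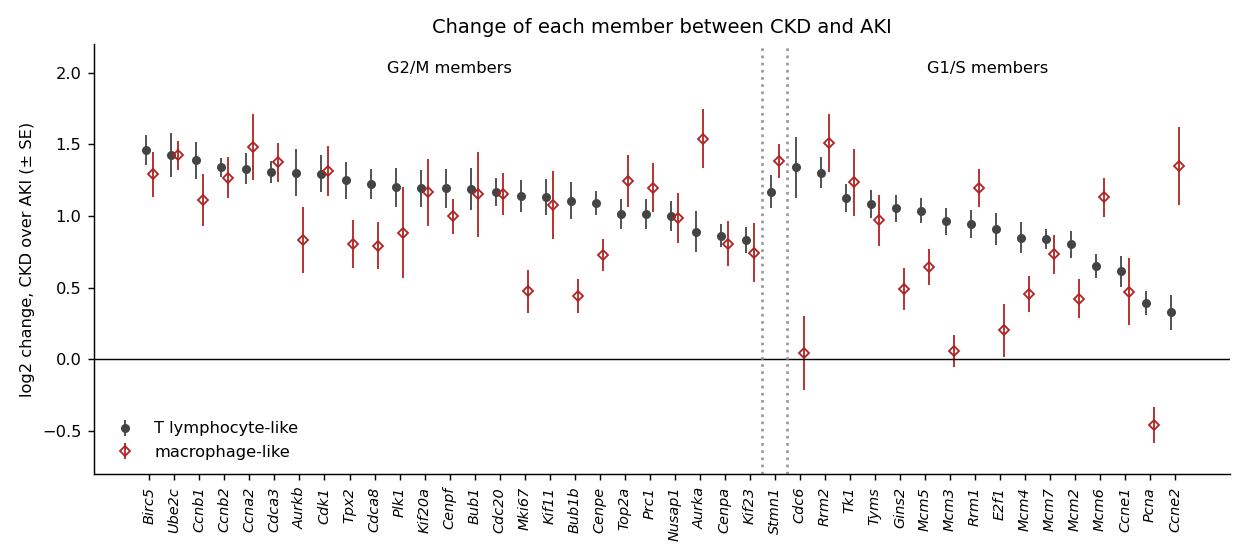
Log2 change of each of the 42 members between CKD and AKI (y axis; bars are the SE of edgeR's fit) in T lymphocyte-like (filled) and macrophage-like (open) cells, by group on the x axis. All T lymphocyte-like values lie above 0, and among macrophage-like values Pcna alone lies below 0 at -0.46.

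The macrophage-like class held 3 clusters that differed in these genes, and their shares of the class differed between AKI and CKD. In the cluster led by Ccl8, a chemokine gene, with the complement genes C1qa to C1qc among its leading genes, the positive share was 1.18% in the control, 2.55% and 2.71% in AKI, and 22.8% and 15.98% in CKD. In the cluster led by Fn1, the fibronectin gene, it was 8.56% and 12.1% in AKI but 8.39% and 5.07% in CKD. In the cluster led by Ctsk, the cathepsin K gene, with Mmp9 and Acp5, it was 15.2% and 20.3% in CKD, while AKI gave only 18 and 26 cells deep enough to count, and the median depth of its cells was 661 to 815 UMIs in control and AKI against 34636 in CKD 2. Ccl8-led cells were 392 of 632 and 553 of 943 counted cells in AKI, 1326 of 2065 in CKD 1 and 244 of 613 in CKD 2. Fn1-led cells were 222 and 364 in AKI against 155 and 138 in CKD, and Ctsk-led cells were 584 and 231 in CKD.

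Each cluster was then tested alone, a choice made after seeing the data. In the Ccl8-led cluster 39 of 42 members were called higher in CKD (7.67% of all genes), with a median log2 change of 2.205, and Stmn1, Top2a, Cdk1 and Mki67 changed by 2.80 ± 0.15, 2.72 ± 0.16, 2.63 ± 0.24 and 2.06 ± 0.19. Its G2/M level was 2.53 and 2.06 in AKI and 14.6 and 14.01 in CKD. T lymphocyte markers there were at 0.755 and 0.736 in AKI and 3.699 and 1.04 in CKD. The median depth of this cluster was 10840 and 10246 UMIs in AKI, 2615.5 in CKD 1 and 13873 in CKD 2. In the Fn1-led cluster 0 of 41 members were called higher and 3 lower, a count near the 5.67% of all genes called lower. The 3 were Cenpf (-2.09 ± 0.30), Ube2c (-0.90 ± 0.17) and Cenpe (-0.79 ± 0.21). There, 5 of 41 log2 changes were positive. Without the Ctsk-led cluster the test of all other macrophage-like cells called 16 members higher in place of 35 (1.70% of all genes). Mki67 then had a larger log2 change (0.72 ± 0.16) that did not pass (adjusted p = 0.067). Without AKI 1 the test of all macrophage-like cells called 20 members higher (7.59% of all genes).

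**Figure D4:**
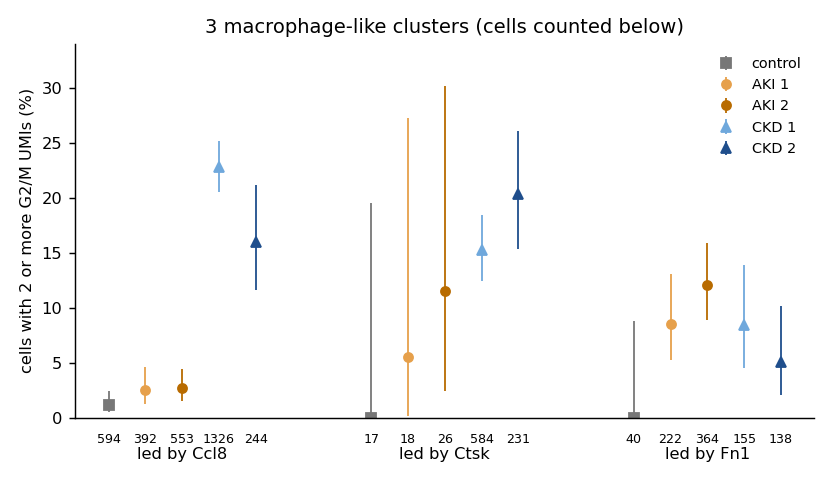
Share of cells with at least 2 G2/M UMIs after thinning (y axis, %) in the 3 macrophage-like clusters, by library; bars are exact 95% binomial intervals and the numbers under the axis are cells counted. In the Ccl8-led cluster both CKD libraries (22.8% and 15.98%) lie above AKI (2.55% and 2.71%), whereas in the Fn1-led cluster they do not.

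Further cell cycle genes of macrophage-like cells followed the members: of 61 further G2/M genes 40 were called higher and 1 lower, and of 42 further S genes 27 were called higher. Of 25 G1 regulators 7 were called higher, among them Cdk4 (0.72 ± 0.10) and Myc (1.14 ± 0.20), and 2 lower, among them Ccnd2, encoding cyclin D2 (-0.87 ± 0.12). Of 18 CDK inhibitors and p53-induced genes 4 were called higher, led by Phlda3 (2.60 ± 0.20) and Ccng1 (0.91 ± 0.12), and 3 lower: Btg2 (-1.58 ± 0.15), Sesn1 (-0.83 ± 0.15) and Cdkn1a, which encodes the CDK inhibitor p21 (-0.44 ± 0.09). Both counts of CDK inhibitors and p53-induced genes lay near the shares of all genes called higher and lower in this class, given above. Without the Ctsk-led cluster the values of Ccnd2 and Cdkn1a turned to 0.12 and 0.27.

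T lymphocyte-like and macrophage-like cells were compared within the 5 libraries, with the library as a block. Of the 42 members 27 were higher in T lymphocyte-like cells, where 31.7% of all 14133 genes tested were, and 1 was lower, where 26.5% were. Cenpa, the centromeric histone H3, stood at 0.347 in the control, 1.02 to 1.07 in AKI and 1.77 to 2.06 in CKD in T lymphocyte-like cells, and at 0.142, 0.300 to 0.415 and 0.682 to 0.734 in macrophage-like cells (log2 difference 1.40 ± 0.11). Rrm2, Mcm4, Ccnb2 and Rrm1 differed by 1.495 ± 0.13, 1.34 ± 0.12, 0.99 ± 0.12 and 0.89 ± 0.11. The gene lower in T lymphocyte-like cells was E2f1 (-0.89), which encodes an activating E2F factor. Ccne1, Mcm5 and Top2a also differed (1.68 ± 0.24, 0.77 ± 0.12 and 0.89 ± 0.20), but Cdk1 (0.02 ± 0.11), Stmn1 (0.35 ± 0.14), Mki67 (0.44 ± 0.21) and Pcna (0.33 ± 0.18) did not pass. Without the Ctsk-led cluster 23 members were higher (30.1% of all genes) and 1 lower (30.1%). Among G1 regulators, T lymphocyte-like cells had more Ccnd3 (1.95 ± 0.11) and less Ccnd1 (-4.41 ± 0.36), which encode cyclins D3 and D1.

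Whether the change from AKI to CKD differed between these classes was tested with an interaction term over 14274 genes. It was larger in T lymphocyte-like cells for 9 members, where 14% of all genes were called in that direction, and smaller for 0. They were the replication genes Pcna (0.95 ± 0.12), Mcm3 (1.01 ± 0.14), Cdc6 (1.40 ± 0.24), Gins2 (0.67 ± 0.19), Mcm5 (0.50 ± 0.16) and E2f1 (0.82 ± 0.24) and the G2/M genes Mki67 (0.76 ± 0.18), Bub1b (0.77 ± 0.19) and Cdca8 (0.53 ± 0.17). Without the Ctsk-led cluster 1 member was called in this direction (1.54% of all genes) and 1, Stmn1, in the other (2.68%). It called 4 members higher without AKI 1 (6.08% of all genes) and 4 without AKI 2 (6.53%), and 15 higher (14% of genes) and 2 lower (16.2%) without CKD 2. Without CKD 1, 5 members changed more in T lymphocyte-like cells (12.6% of genes) and 8 more in macrophage-like cells (16.4%). The difference between the classes therefore depended on the libraries and on the macrophage-like clusters counted. The counts of members were not far from the shares of all genes, so they are not read as particular to the members.

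CD8 T-like and CD4 T-like cells gave no order that held. With subsets taken from clusters, 35 members were higher in CD8 T-like cells, where 15.7% of all 12687 genes were, and 1 was lower (12.7% of genes), Ccne1 (-1.32 ± 0.13). Stmn1, Birc5, Ccna2, Mcm7 and Mcm4 had the smallest p-values in the higher direction (0.87 ± 0.10, 1.01 ± 0.12, 0.98 ± 0.12, 0.83 ± 0.10 and 0.62 ± 0.08). With subsets drawn from each cell's own Cd8a, Cd8b1 and Cd4 UMIs instead, 0 members were higher and 30 were lower in CD8 T-like cells (10.7% of genes), and with doublets kept 1 was lower (9.16%) and 0 were higher (7.95%). The Ccl1-led cluster, which was rich in positive cells and received no subset name, enters the second comparison and not the first.

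In PT-like cells the positive share was 0.533% (0.173 to 1.24) in the control, 2.17% and 0.662% in AKI, and 12.7% (11.5 to 14.02) and 4.24% (2.34 to 7.02) in CKD. The difference between CKD and AKI was 7.06 percentage points in the share and 2.07 UMIs per 10000 in the G2/M level, and fell to 0.952 and 0.468 with clusters made without correction by library. The control and AKI 2 lay below the 1.56% of neutrophil-like cells. Over 12391 genes 17 of 39 members tested were called higher in CKD, where 1.54% of all genes were, with a median log2 change of 1.98 over the members and 0.03 over all genes, and 3 members did not pass the filter on low counts. Of the 17, 16 were G2/M members.

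Mki67 in PT-like cells stood at 0.0717 in the control, 0.0728 and 0.0494 in AKI and 0.285 and 0.241 in CKD (log2 change 2.21 ± 0.25; adjusted p = 0.0078). Ccnb2 (3.52 ± 0.41), Cenpf (2.97 ± 0.41), Cdc20 (2.80 ± 0.41) and Ube2c (3.76 ± 0.57) were also called. Top2a stood at 0.00489 in the control, 0.0971 and 0.0447 in AKI and 0.354 and 0.194 in CKD (2.10 ± 0.38), and Mcm5 at 0.0409 and 0.0294 in AKI and 0.159 and 0.0721 in CKD (1.88 ± 0.41). Both were called, but Cdk1 (2.88 ± 0.70; adjusted p = 0.065), Pcna (0.57 ± 0.23) and Ccne1 (1.21 ± 0.60) were not. Stmn1 was not called either, and its level of 0.863 in the control exceeded both AKI libraries (0.660 and 0.703) and CKD 2 (0.730). Myc, the proliferation-linked transcription factor, was called lower in PT-like cells of CKD (-1.12 ± 0.21).

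Markers of T lymphocytes moved with these values. Of positive PT-like cells 89.6% held a UMI of the T lymphocyte markers against 43.4% of the rest, and their T marker level was 14.98 against 2.07 per 10000 UMIs. The cluster led by Miox, a proximal tubule enzyme gene, had 23.7% positive cells in CKD 1 at a median depth of 2045.5 UMIs, with G2/M members at 8.91 and T markers at 13.004 per 10000. The cluster led by Guca2b, with 1091 of its 1246 cells in CKD 1, had 15.6% positive cells there and T markers at 9.84. In the cluster led by Gm26917 CKD 2 did not stand below CKD 1: the positive share was 0.608% in the control, 1.99% and 0 of 89 in AKI, and 4.77% and 5.56% in CKD, the G2/M level was 2.90 in CKD 1 and 6.00 in CKD 2, and T markers were at 5.77 and 6.33. In the deeply counted cluster led by Spink1 (median depth of 8506.5 to 26649 UMIs) the positive share was 1.55% in the control, 0.559% and 0 of 225 in AKI, and 0.971% and 0.943% in CKD, with T markers at 0.762 and 0.457 in AKI and 0.879 and 0.767 in CKD. The part of T lymphocyte transcripts in the PT-like values was not tested.

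Within the Spink1-led cluster alone, chosen after seeing the data, 5 of 26 members tested were called higher in CKD (1.51% of all genes): Ube2c (4.01 ± 0.80), Mki67 (2.37 ± 0.47), Cenpf (3.95 ± 0.83), Ccnb2 (3.29 ± 0.70) and Tyms, encoding thymidylate synthase (0.76 ± 0.18). The G2/M level there was 0.212 and 0.216 in AKI, 0.630 and 0.641 in CKD, and 0.640 in the control. CKD thus lay above AKI in this cluster and at the level of the control. The test of all PT-like cells called 10 members higher without AKI 1 (0.717% of all genes), 5 without AKI 2 (0.0862%), 13 without CKD 1 (4.21%) and 39 without CKD 2 (9.38%), and 1 with clusters made without correction by library (0.918%).

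**Figure D5:**
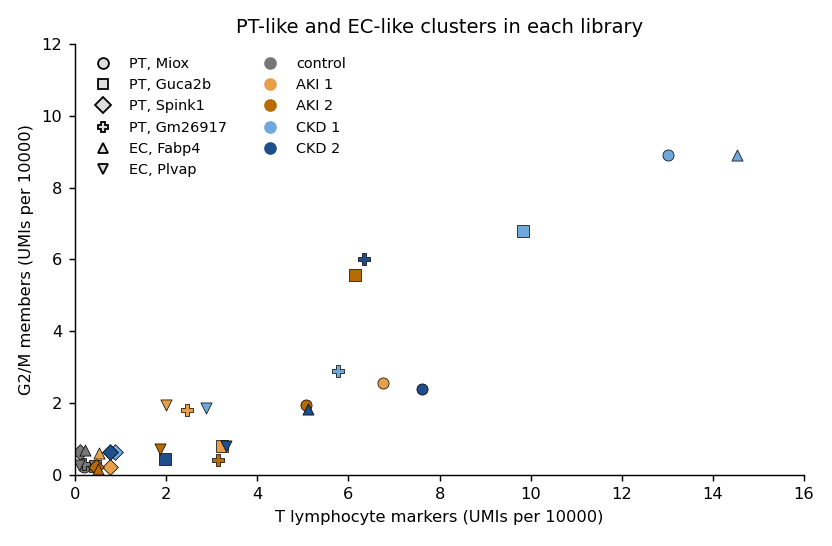
Summed level of the G2/M members (y axis) against that of the T lymphocyte markers (x axis), both in UMIs per 10000, for 4 PT-like and 2 EC-like clusters (shapes, by leading gene) in each library (colours). CKD 1 holds the highest values on both axes in the Miox-led, Guca2b-led and Fabp4-led clusters, while the Spink1-led cluster stays below 1 on both.

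Other tubular classes gave positive cells chiefly in CKD 1. TAL-like cells had 0 of 361 in the control, which allows up to 0.831%, 0.794% and 2.97% in AKI, and 7.17% and 1.67% in CKD. The G2/M level of TAL-like cells was 0.625 and 1.57 in AKI and 2.22 and 1.70 in CKD, with T markers at 0.802 and 0.728, then 4.01 and 1.46. CD IC-like cells had 0.158% in the control, 0 of 205 and 0.826% in AKI, and 13.8% and 2.90% in CKD. Their G2/M level was 0.325 and 0.542 in AKI, 3.81 in CKD 1 and 2.88 in CKD 2. T markers were at 0.975 and 0.573 in AKI, 3.84 in CKD 1 and 0.498 in CKD 2. In CKD 2 the G2/M level was thus above AKI where T markers were below AKI. The CKD 2 values rest on 80 cells, and 2 of the 69 counted were positive (0.353 to 10.1%), so a few cells can carry that level. In CD IC-like cells 37 of 42 members were higher in both CKD libraries than in both AKI libraries, as were 13.9% of all genes with at least 10 UMIs. CD PC-like cells had 61 positive cells of 583 in CKD 1 (10.5%) and 0 in each other library. DCT-like cells had 0 of 51 and 0 of 44 in AKI, and 3.55% and 4.35% in CKD, where CKD 2 rests on 23 counted cells. The G2/M level of DCT-like cells was 0.379 and 0.415 in AKI and 1.86 and 1.57 in CKD, with T markers at 0.573 and 0.756, then 2.60 and 3.89. Over 12901 tubular cells, 1697 of them in clusters with markers of more than 1 tubular class and so unnamed, the share was 0.272% in the control, 1.07% and 1.14% in AKI, and 11.3% and 3.38% in CKD, at median depths of 2621 UMIs in CKD 1 and 4468 to 8160.5 elsewhere. Positive tubular cells held T markers at 11.7 per 10000 UMIs and the rest at 1.38.

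EC-like cells had positive shares of 0.180% in the control, 1.22% and 1.16% in AKI, and 12.4% (10.3 to 14.8) and 0.957% in CKD, so that 1 of the 2 CKD libraries lay below both AKI libraries. Mki67 stood at 0.271 and 0.0725 in AKI and 0.381 and 0.0770 in CKD (log2 change 0.59 ± 0.80). Over 10335 genes edgeR called 0 genes and 0 of 27 members (0% of genes). At an unadjusted p under 0.05 stood 694 genes and 1 member. DESeq2 called 20 genes and 0 members. Some members were called without a filter on low counts and with a replicate block, as given in the closing section on processing. With CKD 1 as the lone CKD library, assumed to vary as the AKI libraries do, 26 members were called higher (12.9% of all genes), and with CKD 2 as the lone CKD library 1 was called lower (0.486%). In the cluster led by Fabp4, 20.4% of CKD 1 cells were positive beside T markers at 14.5 per 10000, whereas in the cluster led by Plvap, a gene of fenestrated endothelium, the shares were 0.103% in the control, 1.32% and 1.25% in AKI, and 2.56% and 0.535% in CKD. The Plvap-led cluster alone gave 0 of 21 members called (0% of genes; 1 unadjusted).

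Pericyte/fibroblast-like cells had 0 positive of 81 in the control, which allows up to 3.704%, 3.19% and 2.35% in AKI, and 25.9% (21.0 to 31.3) and 2.17% in CKD. Cenpe stood at 0.0503 and 0.0162 in AKI and 0.173 and 0.118 in CKD (2.19 ± 0.60; adjusted p = 0.73). Of 26 members tested 0 were called (0% of 9464 genes), with 625 genes and 1 member at an unadjusted p under 0.05. DESeq2 called 12 genes and 0 members. Some members were called without a filter on low counts. T markers in this class stood at 8.87 in CKD 1 and 7.15 in CKD 2 against 2.33 and 2.78 in AKI, and the median depth was 2098 UMIs in CKD 1 and 8824 in CKD 2. With CKD 1 as the lone CKD library 3 members were called higher (1.86% of all genes). In EC-like and pericyte/fibroblast-like cells the high share of CKD 1 cannot be told apart from its low depth and its T markers.

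DC-like cells differed from the other immune classes in the control. Their positive share was 6.29% (3.18 to 10.97) there, 4.62% and 7.04% in AKI, and 20.4% (17.9 to 23.1) and 7.87% (5.25 to 11.2) in CKD, and their G2/M level was 5.21, then 3.57 and 5.86, then 8.21 and 8.11. Mki67 stood at 0.749 in the control, 0.539 and 0.873 in AKI and 1.08 and 0.961 in CKD. T markers stood at 0.720 in the control, 1.94 and 1.90 in AKI and 4.42 and 3.13 in CKD. Like the G2/M level they were highest in CKD. They were lowest in the control, however, where the G2/M level lay between the AKI values. The median depth was 2800 UMIs in CKD 1 and 12646 in CKD 2. In DC-like cells 10 of the 42 members were higher in both AKI libraries than in the control, where 34.1% of all genes with at least 10 UMIs were. In macrophage-like cells 42 members were, beside 40.9% of genes. In DC-like cells 31 members were higher in both CKD libraries than in both AKI libraries (23.6% of genes). NK-like cells had positive shares of 0.515% in the control and 1.27% to 2.70% in the 4 others, within the interval of neutrophil-like cells. Of the 35 members with at least 10 UMIs there, 20 were higher in both CKD libraries than in both AKI libraries (18.6% of genes). T markers were high in this class, at 11.3 in the control, 25.7 and 31.7 in AKI and 17.1 and 21.0 in CKD. The part of T lymphocytes in NK-like cells was not tested. B lymphocyte-like cells had 0 of 259 in the control, which allows up to 1.16%, 2.41% and 0 of 43 in AKI, and 7.64% and 3.31% in CKD. Their G2/M level was 2.82 and 1.70 in AKI and 3.66 and 2.05 in CKD, so the groups overlapped. Of the 17 members with at least 10 UMIs in B lymphocyte-like cells, 2 were higher in both CKD libraries than in both AKI libraries (21.0% of genes).

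Podocyte-like cells, which are not known to divide readily, had 4 positive cells of 41 in the control (9.76%, 2.72 to 23.1), 2.91% and 2.86% in AKI, 19.1% in CKD 1 and 0 of 28 in CKD 2, which allows up to 10.7%. That cluster was led by Akap12 and Cpe, with Wt1 and Cdkn1c among its leading genes. Its positive cells held T markers at 5.21 per 10000 UMIs and the rest at 2.47.

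Across 76 sums of a class and a library, the level of Mki67 followed Ube2c most closely among the members (Spearman's rho 0.910) and Ccne2 least (0.438). Outside all lists the closest genes were Knstrn (0.856), which encodes a kinetochore protein, Asf1b (0.830), a histone chaperone gene, Diaph3 (0.814), Cdkn3 (0.809) and Hist1h3c (0.802). These values describe sums that share libraries and depth, and carry no test.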

How the data were processed

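Single-cell 3′ libraries of 1 control, 2 AKI and 2 CKD kidney samples were analysed from the UMI counts the authors deposited, whole numbers per gene and barcode without normalization. The submitters' processing notes name Cell Ranger 7.2.0, STAR and GRCm39, whereas headers of the deposited files name another Cell Ranger version and the control's gene list another build (mm10), so counts were matched by gene identifier. The CellBender step of the study, which removes free RNA, is not part of these counts and was not repeated.

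A cell was kept where 200 or more genes were detected and mitochondrial genes held no more than 30% of its UMIs. Doublets were removed at an expected 0.8% per 1000 cells, by the share of simulated doublets among a cell's neighbours. This took 50% of positive cells in the control and 11.4 to 16.3% elsewhere, against 7.39 to 15.4% of all cells. Leiden clusters (resolution 1.5; 40 components of 3000 variable genes; 15 neighbours; corrected by library) were named from marker genes in scanpy 1.11.5 (Python 3.11.15). The scoring of markers was settled after clusters had been seen. The members, lists and markers were chosen with earlier results of these data known.

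UMIs were summed per library and class (at least 20 cells) and tested by the quasi-likelihood method of edgeR 4.0.16 (R 4.3.3; TMM scaling, filterByExpr, Benjamini-Hochberg adjustment over all genes tested). The control entered no test against AKI or CKD, since it has 1 library. Depth was 55016760 to 80187309 UMIs in kept cells of a library, and binomial and Poisson intervals cover counting error only. On simulated counts with 200 changed genes, 67.5% were recovered for T lymphocyte-like cells (13757 genes, 6 false calls), 63.5% for macrophage-like cells (12500 genes, 5 false calls) and 59.0% for PT-like cells (12391 genes, 2 false calls). Values in every library are given for 7 members fixed for this purpose (Mki67, Top2a, Cdk1, Pcna, Mcm5, Ccne1 and Stmn1) and for up to 5 members per direction with the smallest p in a test, with at most 5 genes of each further list. Alternatives were DESeq2 1.42.0, its size factors, no filter on low counts, a replicate block, another mitochondrial limit, doublets kept, no correction by library, Leiden resolution 1, cell cycle genes kept among the features, other thinning and positivity rules, and each library left out. Single clusters, the Ctsk-led cluster left out and subsets by UMIs were added after seeing the data. 1 result is not reported here.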

Additional observations from a re-analysis of the deposited data

Results flagged for a closer look

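The change from AKI to CKD differed between T lymphocyte-like and macrophage-like cells, by the interaction term of edgeR's quasi-likelihood test (adjusted p under 0.05), for 9 of 42 members, where 14% of all genes were called in that direction. That count was not far from this share, so it is not read as particular to the members. The log2 change was larger in T lymphocyte-like cells by 0.95 for Pcna, 1.01 for Mcm3, 1.40 for Cdc6, 0.76 for Mki67, 0.77 for Bub1b, 0.67 for Gins2, 0.82 for E2f1, 0.50 for Mcm5 and 0.53 for Cdca8. Without the Ctsk-led macrophage-like cluster 2 members were called, 1 in each direction, and without AKI 1 or without AKI 2 there were 4.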

How the results depend on the processing

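Of the results given for named genes, 2001 kept their direction and their side of the threshold over the alternatives, 192 lost the call, 28 gained it and 20 reversed; of counts and shares 284 stayed within the limits set and 83 moved and 7 reversed, as follows. Without a filter on low counts, genes called were 2278 (T lymphocyte-like), 1170 (PT-like), 425 (EC-like) and 336 (pericyte/fibroblast-like), and members called 31 (PT-like), 8 (EC-like) and 6 (pericyte/fibroblast-like). With 1 library left out, genes called ranged from 0 to 4534 in T lymphocyte-like, 2395 to 5864 in macrophage-like, 47 to 2136 in PT-like, 0 to 2325 in EC-like and 0 to 343 in pericyte/fibroblast-like cells, and from 1429 to 4440 for the interaction and 2214 to 3924 for CD8 against CD4. Members called ranged from 0 to 41, 20 to 39, 5 to 39, 0 to 26 and 0 to 3 in the 5 classes, and from 4 to 17 for the interaction, where 13 without CKD 1 (5 higher and 8 lower in T lymphocyte-like cells) reversed its balance. With doublets kept, genes called were 126 (PT-like), 2 (EC-like) and 2264 (CD8 against CD4), and members called 1, lower, in the last. Without correction by library, 2 genes were called in EC-like cells and 1 member in PT-like cells. DESeq2 called 20 genes (EC-like), 12 (pericyte/fibroblast-like), 2366 (CD8 against CD4) and 1807 with 3 members (interaction). Without the Ctsk-led cluster, macrophage-like cells gave 450 genes and 16 members and the interaction 599 and 2. The Ccl8-led cluster alone gave 1599 genes, the Fn1-led cluster 1000 genes and 3 members (reversed), the Spink1-led cluster 5 members. Subsets by UMIs gave 30 members (reversed). The cause was not tested.

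The difference of the positive share between CKD and AKI, in percentage points, was for T lymphocyte-like cells 24.0 unthinned, 9.02 with 1 UMI of Mki67 or Top2a and 8.61 with 2 G1/S UMIs; for macrophage-like cells 19.5 thinned to 2000 UMIs, 26.8 unthinned, 7.82 and 7.57 by those rules, 16.7 in the Ccl8-led and -3.59 in the Fn1-led cluster (reversed); for PT-like cells 12.2 thinned to 2000, 16.1 unthinned, 0.952 without correction by library and 0.678 in the Spink1-led cluster; for EC-like cells 12.6 unthinned and -0.57 without correction by library (reversed). In the control it was 3.15 thinned to 2000, 7.12 unthinned, 3.10 and 3.55 by those rules, 3.04 with doublets kept and 4.93 without correction by library in T lymphocyte-like cells, and 4.28 unthinned and 0 in the Fn1-led cluster in macrophage-like cells. The difference of the G2/M level was 12.003 in the Ccl8-led and -2.59 in the Fn1-led cluster (reversed), 3.31 at the 15% mitochondrial limit, 3.19 with doublets kept, 0.468 without correction by library and 0.422 in the Spink1-led cluster for PT-like cells, and 3.71 with doublets kept for EC-like cells.

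Single genes that reversed were Ccnd2 (0.12) and Cdkn1a (0.27) in macrophage-like cells and Rb1 (-0.086) and Btg2 (-0.32) in the interaction, all without the Ctsk-led cluster; Stmn1 in EC-like cells with 1 library left out (-1.82 to 1.57, the lowest without CKD 1); and in CD8 against CD4, Mki67 (-0.12), Cdk1 (-0.079) and Mcm5 (-0.010) with doublets kept, Pcna (0.35 and 0.35) with cell cycle genes kept and at resolution 1, Ccne1 (0.94) at resolution 1, and, with subsets by UMIs, Mki67 (-0.64), Top2a (-0.44), Cdk1 (-0.50), Mcm5 (-0.46), Stmn1 (-0.30), Birc5 (-0.42), Ccna2 (-0.44), Mcm7 (-0.21) and Mcm4 (-0.28). With a replicate block, PT-like cells gave 730 genes and 28 members, EC-like cells 101 genes and 2 members, T lymphocyte-like cells 41 members, macrophage-like cells 37 and pericyte/fibroblast-like cells 0. Deviations of same-numbered AKI and CKD libraries correlated at 0.242, 0.136, 0.169, 0.214 and 0.183 in T lymphocyte-like, macrophage-like, PT-like, EC-like and pericyte/fibroblast-like cells; with 2 pairs the numbers are not shown to pair the libraries. Depth limits the Miox-led cluster, where 81 of 317 and 102 of 306 AKI cells reached 1000 UMIs.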

Other observations

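Values that entered no comparison of the report follow. An unnamed cluster of 35 cells was led by Hells and Dut, genes of S phase, with Cdc20 among its leading genes. Mki67 and Top2a, which are both G2/M members, had unlike counts in PT-like cells of the control, 44 and 3 UMIs, whereas T lymphocyte-like cells of the control had 91 and 93. In the control, Treg-like cells had 0 UMIs of Mki67 and Cdk1 and 2 of Top2a among 83 cells, while T lymphocyte markers stood there at 13.2 per 10000 UMIs against 31.8 to 34.5 in the other libraries.

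Ccne1 was lower in both CKD libraries in Treg-like cells: it stood at 0.211 and 0.209 per 10000 UMIs in AKI and 0.162 and 0.163 in CKD. In the cluster of DC-like cells led by Ccl17, the positive share was 7.75% in the control, 5.30% and 8.02% in AKI, and 20.6% and 9.33% in CKD.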
